A study of Equus caballus with 12 samples.

Results

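NOS2, the inducible nitric oxide synthase, and ARG2, the mitochondrial arginase, were the 2 genes examined of 1341 genes that the authors listed as changed in equine mesenchymal stem cells (MSCs) after cytokine licensing. They were chosen by their symbols, and each matched 1 row of the table. The cells were primary MSCs, adherent stromal cells grown out of the bone marrow of 6 horses. Dual licensed cultures received recombinant human IL-1β at 2 ng/ml together with TGF-β2, also recombinant and human, at 1 ng/ml for 72 hours, and naive cultures of the same 6 horses were kept for 72 hours in standard medium, which in both groups was low glucose DMEM with fetal bovine serum and antibiotics. PolyA-selected RNA of each culture was sequenced as 1 library, which gave 6 licensed and 6 naive libraries paired by horse. The sources used here do not give the age, sex or breed of the horses, and the cytokines were human proteins acting on horse cells.

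Both enzymes use the amino acid arginine. Nitric oxide synthases oxidise it to citrulline and nitric oxide, a gas that diffuses between cells, and NOS2 is the form that inflammatory signals switch on. Arginases split arginine into urea and ornithine, from which cells make proline and polyamines, and ARG2 is the mitochondrial form, found mainly in tissues other than the liver. Nitric oxide is known as a mediator by which mouse MSCs hold back T cells, while human MSCs are known to rely on tryptophan breakdown instead. The horse gene identifiers in the table were ENSECAG00000024761 for NOS2 and ENSECAG00000016534 for ARG2.

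Values are given as normalized counts, the reads of a gene after division by the size factor of its library. The listed genes held 2718393 to 3424328 reads in licensed libraries and 1672419 to 1844648 in naive libraries, and total sequencing depth is unknown. Each listed gene had passed the authors' test, at an adjusted p under 0.05 and over 2-fold in size, so a further test of licensing on these genes repeats a selection already made. The ratio of adjusted p to p in the table corresponds to 13183 tested genes, of which 5.08% were listed as higher and 5.09% as lower in licensed cells. Both libraries of horse 1 were far above those of the other 5 horses for NOS2, and its naive library was below them for ARG2. Several results that rest on that horse are given with and without it, and the others with it included. Of the 10 MSC surface markers considered, THY1 was listed, with 298 to 4743 normalized counts in licensed and 4625 to 31119 in naive libraries, so the labelled cell type could be checked against that marker alone. THY1 was listed as lower, 10% of these markers, against 5.09% of all genes tested. It was lower in licensed cells of all 6 horses, as were 93.3% of the 671 genes listed as lower.

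NOS2 was higher in licensed cells of all 6 horses, as were 94.3% of the 670 genes listed as higher, and its level differed widely between horses. Licensed libraries of horses 1 to 6 had 14047, 3124, 1350, 1080, 1040 and 234 normalized counts of NOS2. Naive libraries of the same horses had 450, 27.8, 19.4, 38.9, 30.1 and 22.7 normalized counts. Horse 1 was highest in both groups, horse 6 was lowest among the licensed libraries, and 5 of the 6 naive libraries lay close together. The groups overlapped at 1 point, because the licensed library of horse 6 was below the naive library of horse 1. Means were 3479 ± 5265 normalized counts in licensed and 98.1 ± 172 in naive libraries (SD, n = 6 each), and both SDs exceeded their means. In the authors' deposited table the log2 fold change of NOS2 was 5.15, a 35.5-fold rise, with an adjusted p of 4.42e-06.

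ARG2 also rose in all 6 horses, by a smaller factor and to nearly the same level in each. Its licensed libraries, in the order of horses 1 to 6, had 2852, 1958, 2265, 2060, 1964 and 2386 normalized counts. Naive libraries had 347, 599, 656, 554, 528 and 756 normalized counts of ARG2 in the same order. No licensed library was as low as any naive library, and horse 1 was the highest licensed and the lowest naive library. Means were 2248 ± 342 normalized counts in licensed and 573 ± 137 in naive libraries (SD, n = 6 each). The authors' deposited table gave a log2 fold change of 1.97 for ARG2, a 3.92-fold rise, with an adjusted p of 6.16e-30. Groups that did not overlap in this direction were found for 64.9% of the 670 genes listed as higher, a group that held ARG2 and not NOS2.

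**Figure D1:**
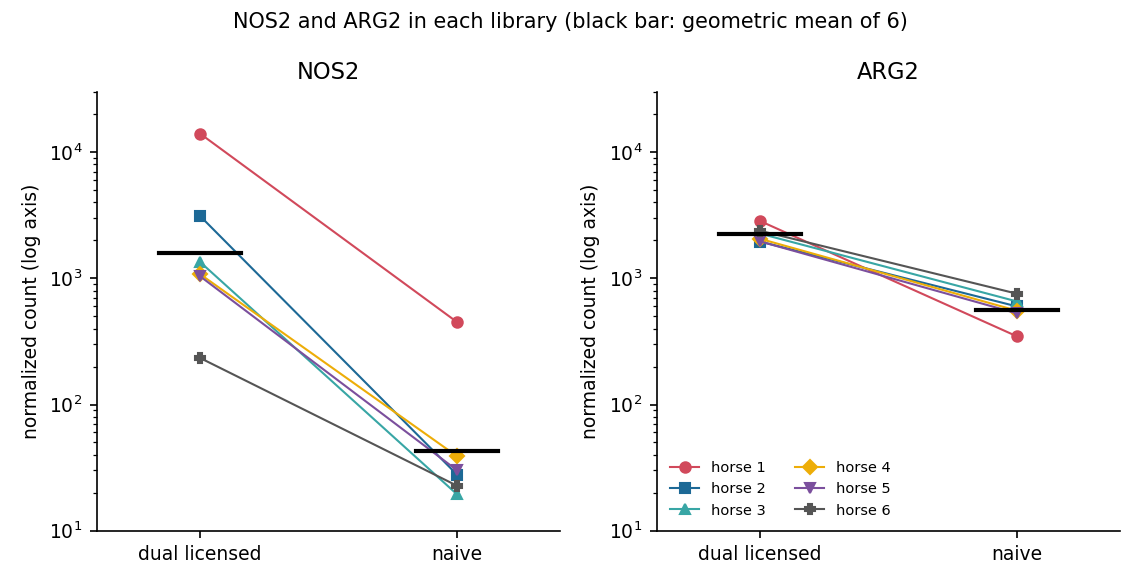
NOS2 (left) and ARG2 (right) in normalized counts on a log axis, with a line joining the licensed and the naive library of each of the 6 horses and a black bar at the geometric mean. NOS2 spans 234 to 14047 in licensed and 19.4 to 450 in naive libraries, while ARG2 stays within 1958 to 2852 in licensed and 347 to 756 in naive libraries.

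On the log2(normalized count + 1) scale, limma over all 1341 genes gave NOS2 a log2 fold change of 5.15 ± 0.92 (SE, adjusted p = 1.79e-04) without a term for the horse. Blocking on the horse gave NOS2 an SE of 0.37 and an adjusted p of 1.33e-06 in limma. For ARG2 the same limma fit gave 2.00 ± 0.18 (SE, adjusted p = 1.11e-06), and an adjusted p of 4.09e-06 when blocked on the horse. This fit called 48.4% of the listed genes higher and 46.8% lower. Within horses, an exact sign-flip permutation test over the 6 log2 changes gave p = 0.0312 for each gene (two-sided), the smallest p that 6 pairs can give.

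The rise of NOS2 within a horse was 31.2-fold in horse 1, 112-fold in horse 2, 69.7-fold in horse 3, 27.8-fold in horse 4, 34.5-fold in horse 5 and 10.3-fold in horse 6. Horse 1, with the highest level in both groups, was thus in the middle of the range of rises. The rise of ARG2 was 8.22-fold in horse 1 and between 3.16-fold and 3.72-fold in the other 5 horses. Log2 changes averaged 5.15 ± 1.18 for NOS2 and 2.00 ± 0.52 for ARG2 (SD over 6 horses). The log2 change of NOS2 exceeded that of ARG2 in all 6 horses, by 3.15 ± 1.32 on average (SD, n = 6) and by 1.65 to 5.05 in single horses. That difference had an exact sign-flip permutation p of 0.0312 (two-sided), again the smallest possible.

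Without horse 1, NOS2 averaged 1365 ± 1068 normalized counts in licensed and 27.8 ± 7.50 in naive libraries (SD, n = 5 each), and the groups no longer overlapped. The ratio of these means was 49.1, against 35.5 with all horses, while limma's log2 fold change was 5.19. ARG2 without horse 1 averaged 2127 ± 191 normalized counts in licensed and 619 ± 90.8 in naive libraries, with log2 changes of 1.66 to 1.89 and an SD of 0.11 over the 5 horses. By that SD, ARG2 stood 38th of the 1341 genes, counted from the most uniform change, and the median over all of them was 0.43. This rank favours ARG2, because horse 1 held its outlying change, at 3.03, while other genes kept any outlying horse of their own. With horse 1 included the SD of ARG2, 0.52, was close to the median of 0.50. NOS2 had an SD of 1.32 without horse 1.

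Counting error was small against these differences, except in naive NOS2. The naive libraries of horses 2 to 6 held 26, 20, 35, 29 and 22 reads of NOS2, and that of horse 1 held 425. For the lowest of them, 20 reads in horse 3, the 95% exact Poisson interval was 12.2 to 30.9 reads, and for the highest of those 5, 35 reads in horse 4, it was 24.4 to 48.7. These intervals overlap, so the order of the 5 low naive libraries was not resolved at this depth. The 425 reads of horse 1 had an interval of 386 to 467. All 6 licensed libraries held at least 255 reads of NOS2, and ARG2 had at least 328 reads in every library. Such intervals cover counting error only, since reads without molecular identifiers are not independent molecules.

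The 2 genes stood at different places among the 670 genes listed as higher. By size of the deposited rise NOS2 was the 14th and ARG2 the 225th, while by deposited adjusted p NOS2 was the 374th and ARG2 the 49th. The SD of log2 levels over the 6 licensed libraries was 1.96 for NOS2, the 9th largest of all 1341 genes, and 0.21 for ARG2, the 1224th, with a median of 0.52. Of the variance of NOS2 over the 12 libraries on the log2 scale, 70.6% lay between licensed and naive cells, 26.3% between horses and 3.1% in neither. For ARG2 these shares were 92.7%, 2.1% and 5.2%, and the medians over all listed genes were 71.5%, 19.9% and 5.0%. These SDs and shares include horse 1, whose NOS2 stood above the log2 group mean by 3.15 in licensed and 3.34 in naive libraries.

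**Figure D2:**
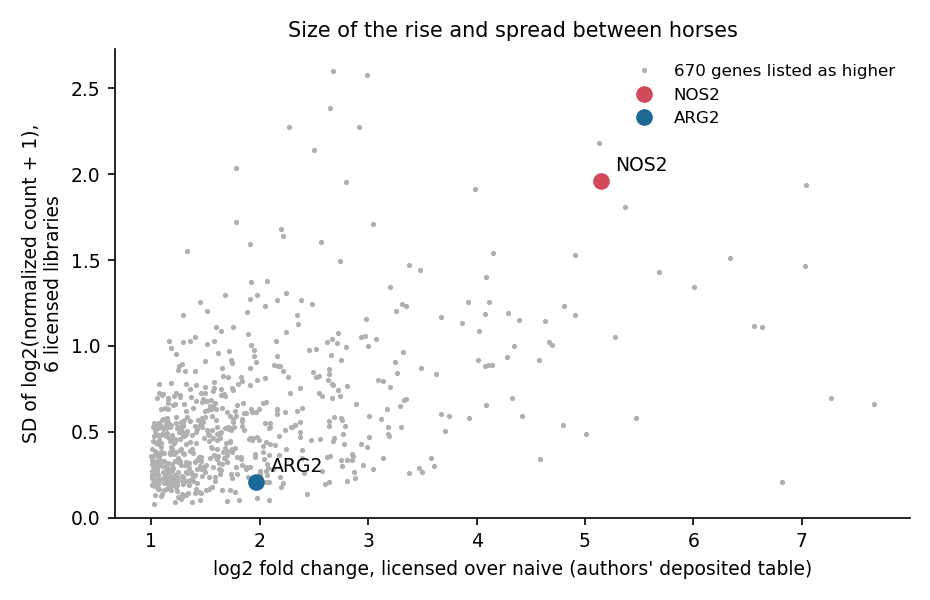
Each point is 1 of the 670 genes listed as higher, with the log2 fold change of the authors' deposited table on the x axis and the SD of log2(normalized count + 1) over the 6 licensed libraries on the y axis. NOS2 lies at a log2 fold change of 5.15 and an SD of 1.96, and ARG2 at 1.97 and 0.21.

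Horse 1 had opposite places for the 2 genes in naive cells. Its naive NOS2 level was 16.2 times the median of the other 5 naive libraries, a log2 excess of 3.97 that was the 7th largest of the 1341 genes. Its naive ARG2 level was 0.580 times the median of the others. In licensed cells its NOS2 level was 13.0 times, and its ARG2 level 1.38 times, the median of the other 5 libraries. The licensed library of horse 6 was low for NOS2, at 2.53 below the median of the others on the log2 scale, and not for ARG2, at 0.21 above it.

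Whether horses with more NOS2 also had more ARG2 was asked for the changes, the licensed levels and the naive levels, which made 3 relations over the 6 horses. The log2 changes of both genes had a Pearson r of -0.06 (exact permutation p = 0.939, adjusted p = 0.939) and a Spearman rho of 0.03 (exact permutation p = 1.0). Licensed levels had an r of 0.41 (exact permutation p = 0.414, adjusted p = 0.621) and a rho of 0.09 (exact permutation p = 0.919), and without horse 1 the r was -0.75 over 5 horses. Naive levels ran opposite ways, with an r of -0.93 (exact permutation p = 0.0278) and a rho of -0.89 (exact permutation p = 0.0333), but neither passed adjustment over the 3 relations (adjusted p = 0.0833 and 0.100). With TMM scaling over the listed genes the naive r was -0.86 and passed that adjustment (exact permutation p = 0.0111, adjusted p = 0.0333). That scaling was computed only from genes selected as changed. With pseudocounts of 0.5 and 5 the adjusted exact permutation p of r was 0.0833. The rho with TMM was -0.94 and did not fall below 0.05 (exact permutation p = 0.0167, adjusted p = 0.05). Without the 2 horses farthest from the median of the NOS2 measure, r was -0.36 for the changes, -0.28 for the licensed levels and -0.80 for the naive levels, each over 4 horses. For the naive levels, r without horse 1 alone was -0.74 (exact permutation p = 0.167). The naive levels of the other 5 horses rest on few NOS2 reads, as given above.

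**Figure D3:**
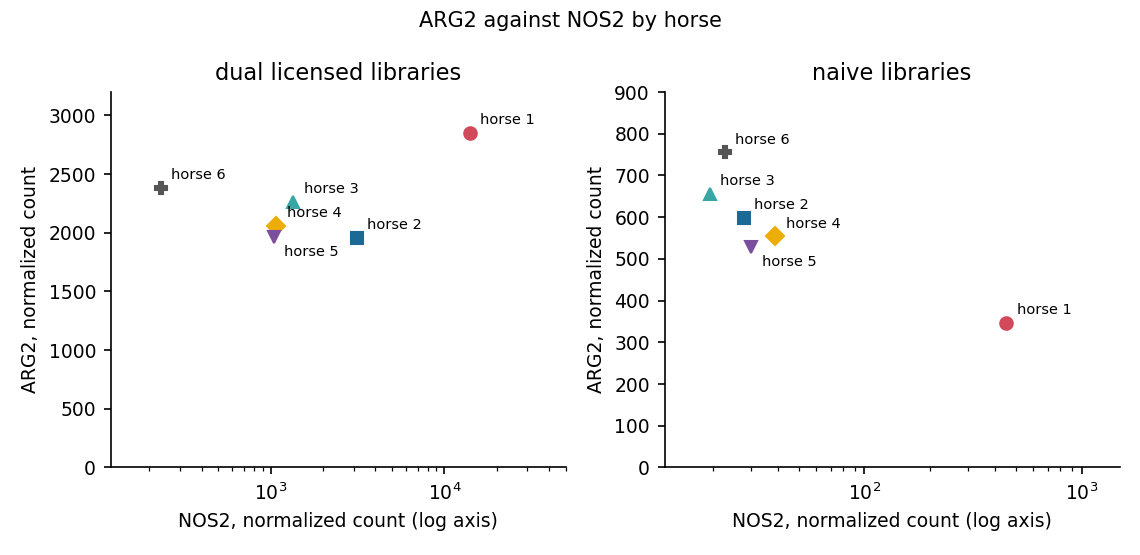
ARG2 in normalized counts on a linear axis against NOS2 in normalized counts on a log axis, for the licensed libraries (left) and the naive libraries (right) of the 6 horses. Horse 1 lies far to the right in both panels, at the highest ARG2 level among licensed and the lowest among naive libraries.

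Other genes that handle arginine, nitric oxide or their products were taken from 8 lists of 133 genes, which included the 2 genes themselves. The authors' deposited table listed 9 of the 133 as higher, 6.77%, and 9 as lower, 6.77%. Without NOS2 and ARG2 the shares were 5.34% and 6.87% of 131 genes. These are close to the 5.08% and 5.09% over all genes tested. How many genes of these and the later lists the authors tested is not known, so each list share is a lower bound. The median deposited log2 fold change of these 18 genes was 0.02, against -1.0 over the whole table. These medians cannot be compared, because the smallest listed change was 1.0013 in size and the table held 670 higher and 671 lower genes. With such even numbers a median falls in, or at the edge of, the gap left by the 2-fold filter. Of the 5 nitric oxide synthases and arginases, NOS2 and ARG2 were in the table, and the levels of NOS1, NOS3 and ARG1 are not analysed here. None of the 8 genes of arginine synthesis and the urea cycle and none of the 26 genes of ornithine, proline and polyamine metabolism was in the table, and their levels are not analysed here. In the fit with limma all 18 listed genes had adjusted p-values of 0.00841 or less, which repeats the selection by the authors' test. That fit called 48.4% of all 1341 genes higher and 46.8% lower. All 18 moved the same way in all 6 horses, as did 94.3% of all genes listed as higher and 93.3% of those listed as lower.

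NOS2 and ARG2 were not the only arginine-using enzymes among the listed genes. Of 19 others, 2 were listed as lower in licensed cells, 10.5%, against 5.09% of all genes tested. GATM, a mitochondrial enzyme that joins arginine to glycine in the first step of creatine synthesis and also releases ornithine, had 39.4, 62.6, 90.0, 60.6, 101 and 88.9 normalized counts in licensed libraries of horses 1 to 6. It had 137, 161, 208, 339, 187 and 286 in naive libraries, a log2 fold change of -1.57 in the authors' deposited table, and the groups did not overlap, as for 53.5% of the 671 genes listed as lower. PADI2, which turns arginine residues of proteins into citrulline, ranged over 7.16 to 110 normalized counts in licensed libraries and over 61.0 to 422 in naive libraries, with horse 2 highest in both groups. Its log2 fold change in limma's fit was -2.71 ± 0.61 (SE, adjusted p = 9.71e-04).

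Of 12 cationic amino acid transporter genes, SLC7A1 was listed, as higher (8.33%, against 5.08% of all genes tested). It encodes the widely expressed carrier that brings arginine into cells. Licensed libraries of horses 1 to 6 had 766, 649, 758, 766, 757 and 758 normalized counts of SLC7A1. Naive libraries had 214, 258, 333, 384, 363 and 362. The licensed levels of 5 horses agreed within 757 to 766, horse 2 was lower, and horse 1 had the lowest naive level, as it had for ARG2. The rise was 2.33-fold in the authors' deposited table.

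Genes of the cofactor that every nitric oxide synthase needs, tetrahydrobiopterin, moved in both directions. GCH1, the rate-limiting enzyme of its synthesis, had 304, 170, 256, 155, 166 and 163 normalized counts in licensed libraries of horses 1 to 6. The naive libraries had 164, 49.3, 46.5, 38.9, 72.7 and 39.2, so horse 1 was again the highest naive library and overlapped with licensed cells of other horses. Limma's log2 fold change of GCH1 was 1.71 ± 0.34 (SE, adjusted p = 4.71e-04), and horse 1 had the smallest rise, 0.89 on the log2 scale. PTS, which acts after GCH1 in the same synthesis, fell to 84.7 ± 21.0 normalized counts in licensed cells, against 188 ± 43.8 in naive cells (SD, n = 6 each). PCBD1, which takes part in recycling the cofactor, averaged 88.7 ± 33.6 in licensed and 182 ± 71.5 in naive cells. CAV1, a coat protein of caveolae known as an inhibitor of the endothelial nitric oxide synthase, averaged 4248 ± 1227 in licensed and 9605 ± 2142 in naive cells, with log2 changes of -2.02 to -0.81. These 4 were the members listed of 22 cofactor, partner and inhibitor genes. The shares were 4.55% higher and 13.6% lower, against 5.08% and 5.09% of all genes tested.

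Of 16 genes of nitric oxide signalling and removal, 1 was listed as higher, 6.25%, and 3 as lower, 18.8%. Of all genes tested, 5.08% and 5.09% were. GUCY1A2 and GUCY1A1 encode alternative alpha subunits of soluble guanylate cyclase, the enzyme that nitric oxide activates to make cyclic GMP, and they moved in opposite directions. GUCY1A2 ranged over 335 to 1071 normalized counts in licensed and 93.2 to 207 in naive libraries. These groups did not overlap, as for 64.9% of the 670 genes listed as higher. GUCY1A1 ranged over 96.2 to 249 in licensed and 240 to 826 in naive libraries and was lower in each horse, by 1.14 to 1.88 on the log2 scale. PDE5A, which breaks cyclic GMP down, averaged 53.4 ± 20.6 normalized counts in licensed and 169 ± 120 in naive libraries. The naive library of horse 1 had 402, and the others had 98.8 to 198. PDE1A, a calmodulin-dependent phosphodiesterase of both cyclic nucleotides, was at 0 in 5 licensed libraries and at 7.82 in that of horse 2, against 9.69 to 142 in naive libraries.

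Of 25 transcription factor genes known from other species to act on NOS2, 4 were listed as higher, 16%, and 1 as lower, 4%, against 5.08% and 5.09% of all genes tested. CEBPD, a factor of the acute phase response, ranged over 577 to 1310 normalized counts in licensed and 66.6 to 231 in naive libraries and had the largest rise of the 4, with a log2 fold change of 2.55 in the authors' deposited table. HIF1A, the oxygen-regulated factor, averaged 18674 ± 3107 in licensed and 7669 ± 658 in naive libraries. RELB, a subunit of NF-κB, had 718, 656, 573, 488, 510 and 382 normalized counts in licensed libraries of horses 1 to 6. Its naive libraries had 502, 183, 160, 114, 145 and 155, so horse 1 was the highest in both groups, and horse 6 the lowest licensed library, as for NOS2. Horse 1 was also highest in both groups for CEBPD, at 1310 and 231, and for HIF1A, at 24651 and 8507, but not for REL or FOS. The next highest naive libraries were close, at 205 for CEBPD in horse 3 and 8305 for HIF1A in horse 6. The share of all listed genes with horse 1 highest in both groups was not counted. REL, another NF-κB subunit, averaged 410 ± 83.8 in licensed and 198 ± 47.9 in naive libraries, and its highest licensed library was that of horse 6. FOS, a component of AP-1, was the member that fell, with a log2 fold change of -1.04 ± 0.22 in limma's fit (SE, adjusted p = 6.19e-04).

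**Figure D4:**
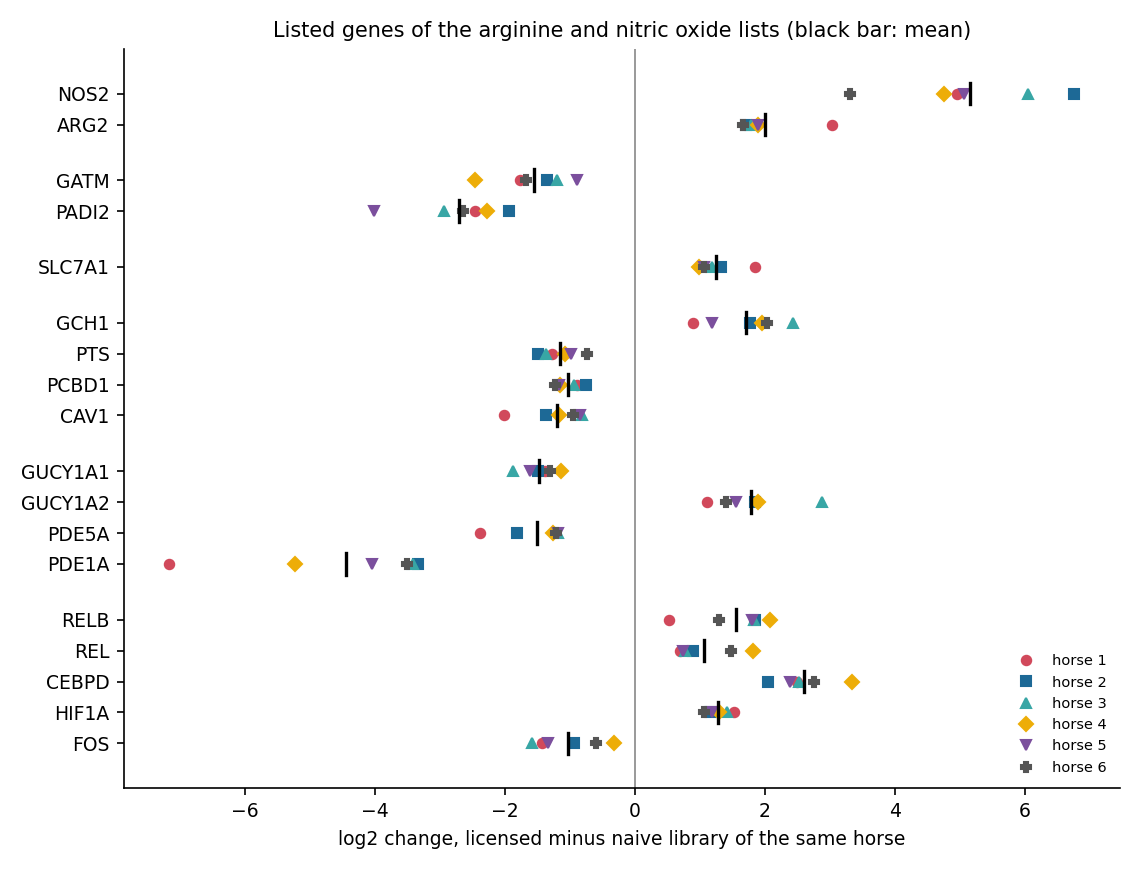
Log2 change, licensed minus naive library of the same horse, for the 18 listed genes of the arginine and nitric oxide lists, grouped by list, with 1 symbol per horse and a black bar at the mean. NOS2 has the longest rise, with horse 6 at 3.31 and horse 2 at 6.76, while the ARG2 symbols sit between 1.66 and 1.89 apart from horse 1 at 3.03.

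The genes most like each enzyme across libraries differed. Likeness was the Pearson r of deviations from the group mean on the log2 scale over the 12 libraries, among 919 genes with a symbol and a mean of at least 50 normalized counts in the higher group. These r values are descriptions, since the 12 libraries come from 6 horses. For NOS2 they were highest for TTC39B (0.93), SPSB1 (0.92), CERKL (0.91), MMD (0.91) and CADPS (0.91), against a 95th percentile of 0.81 over all compared genes. CADPS encodes a protein that primes secretory vesicles, and SPSB1 is an adaptor known in mouse macrophages to mark the NOS2 protein for degradation. Licensed libraries of horses 1 to 6 had 1686, 1075, 1054, 937, 873 and 864 normalized counts of SPSB1, and naive libraries had 680, 274, 275, 350, 270 and 273. Its licensed libraries stood in the same order as those of NOS2, and horse 1 was highest in both groups. SPSB1 was picked for its likeness to NOS2 in these libraries, so the shared order restates the choice. Without horse 1 the r of these 5 genes was 0.61 to 0.79 over 10 libraries, against a 95th percentile of 0.65. MMD was then the 8th most like gene, SPSB1 with 0.66 the 43rd and CADPS with 0.61 the 57th of 919.

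HAS1, a hyaluronan synthase, was the gene least like NOS2, with an r of -0.94, and it remained the least like of the 919 without horse 1, with an r of -0.93. Licensed libraries of horses 1 to 6 had 133, 159, 177, 218, 227 and 386 normalized counts of HAS1, in the reverse of the NOS2 order. Naive libraries had 37.0, 93.2, 111, 108, 104 and 123. HAS1 itself was higher in licensed cells of all 6 horses, with a log2 fold change of 1.17 in the authors' deposited table. HAS1 was picked for this likeness, so the reversed order restates the choice.

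For ARG2 the highest r values were those of RND1 (0.88), SNCB (0.86), MLLT11 (0.82), CCDC170 (0.78) and SIMC1 (0.78), and the lowest was that of STK17B (-0.87). Without horse 1 the r was 0.36 for MLLT11, 0.14 for SIMC1 and -0.35 for STK17B. It was 0.65 for RND1, a small GTPase that loosens cell adhesion, and 0.66 for SNCB, the beta-synuclein gene. CCDC170, which was lower in licensed cells, had 0.77. ARG2 and NOS2 had an r of -0.38 with each other over 12 libraries and of -0.55 without horse 1, where the 5th percentile of all compared genes was -0.57 for NOS2 and -0.64 for ARG2.

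**Figure D5:**
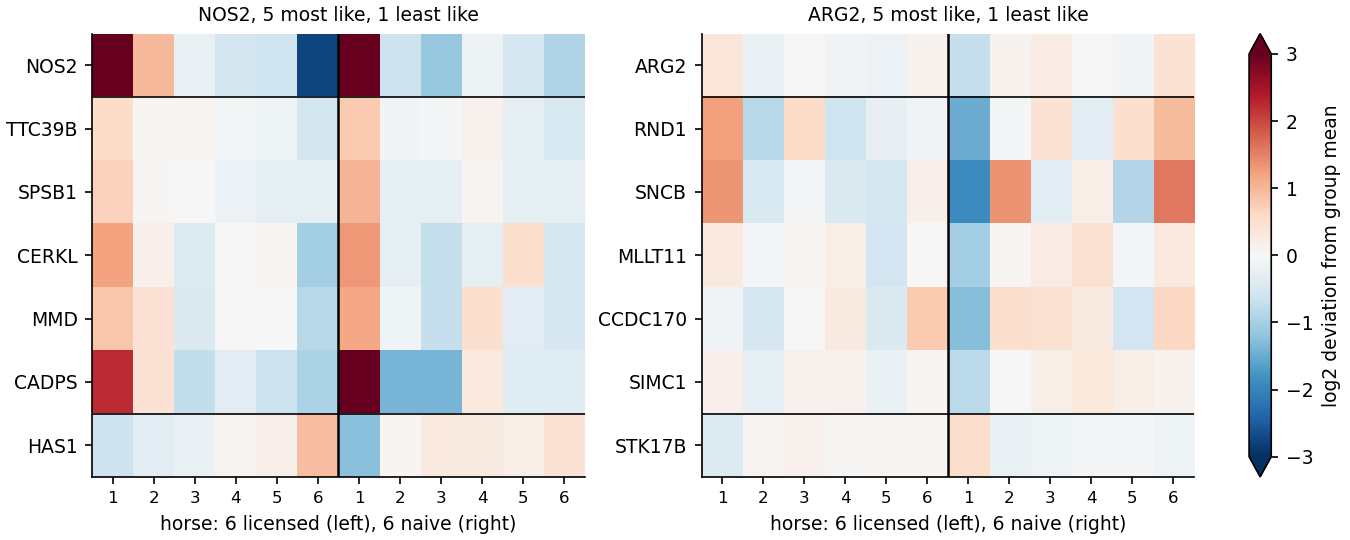
Deviation of each library from its group mean on the log2(normalized count + 1) scale, for NOS2 (left) and ARG2 (right) in the top row, the 5 genes most like each below it and the least like gene in the bottom row, with licensed libraries left of naive libraries in each panel. Colours end at 3, which horse 1 passes for NOS2 with 3.15 in licensed and 3.34 in naive cells.

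Markers of other cells that a bone marrow culture could hold were looked for in the table. None of 16 myeloid, 11 lymphoid and 9 erythroid markers was listed, and their levels are not analysed here. Endothelial markers were listed for 2 of 10, ERG and PLVAP, both higher (20%, against 5.08% of all genes tested), and their summed level was 201 to 358 normalized counts in licensed and 58 to 156 in naive libraries. PLVAP was highest in horse 6 in both groups, at 126 in licensed and 13.4 in naive cells (13 reads), where NOS2 was at 234 and 22.7. ERG did not share this order. It was highest in horse 5 in both groups, at 313 in licensed and 145 in naive cells, and horse 6 had 218 and 83.6. Of 8 pericyte and smooth muscle markers, CNN1 was higher (12.5%) and MCAM and MYH11 were lower (25%, against 5.09% of all genes tested), with a sum of 1191 to 3470 in licensed and 705 to 2019 in naive libraries. That sum was mostly CNN1, which averaged 2482 ± 786 in licensed and 844 ± 323 in naive libraries (SD, n = 6 each). MCAM averaged 190 ± 40.1 in licensed and 502 ± 183 in naive libraries, and MYH11 averaged 22.4 ± 9.89 in licensed and 139 ± 52.7 in naive libraries. The part of such cells in the levels of NOS2 and ARG2 was not tested, and in bulk RNA more RNA per cell cannot be told apart from more cells that express a gene.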

How the data were processed

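The authors deposited 1 table of 1341 genes with 12 library columns of signal, the counts of each gene after division by a library's size factor. Beside these stand the authors' p-value, adjusted p-value and log2 fold change. Per the submitters' processing notes, the tools were Trimmomatic 0.36, STAR 2.5.2b, featureCounts of Subread 1.5.2 and DESeq2. The sources used here do not give the genome build, annotation or use of strand. Every signal value (100% per library, tolerance 0.01 reads) was a whole multiple of 1 read's worth, so reads were recovered. In horse 1, licensed, 1 read was worth 1.009721, close to rounding. DESeq2 1.42.0 without a horse term returned the deposited log2 fold changes (0 of 1341 off by over 0.01), and with it 1092 were off.

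The model was limma 3.58.1 (trend, robust, R 4.3.3) on log2(normalized count + 1), with all 1341 genes and 12 libraries and no horse term. Calls needed a Benjamini-Hochberg adjusted p under 0.05 over the 1341 genes and 2-fold size. This scale understates the change of low genes. Libraries of the same number come from the same horse, and their deviations from group means correlated at 0.484 to 0.631 across genes. Alternatives were a horse block, pseudocounts of 0.5 and 5, a minimum mean of 50, TMM, edgeR 4.0.16, DESeq2 and leaving out each horse. Fits were tested on simulated data, and exact permutation tests used scipy 1.17.1. Members and lists were chosen with earlier results of these data known. Named genes are the 2 members, up to 8 listed genes of each arginine and nitric oxide list, the listed cell type markers, and for each member the 5 genes most and the 1 gene least alike.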

Additional observations from a re-analysis of the deposited data

Results flagged for a closer look

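In each group of 6 values for the 18 listed genes of the arginine and nitric oxide lists (licensed levels, naive levels and changes per horse, 54 groups in all), the highest or lowest value was set against the gap to its neighbour. In 5 groups that gap, as a share of the whole range, passed Dixon's 95% critical value, which chance does in about 1 in 20 groups. NOS2 in the naive library of horse 1 was at 8.82 on the log2(normalized count + 1) scale, where the group's median was 4.91 and its minimum 4.35. RELB in the same library was at 8.97, with a median of 7.31. The log2 change of ARG2 in horse 1 was 3.03, with a median of 1.84. The remaining values were those of horse 2 in licensed cells. SLC7A1 was at 9.35, below a median of 9.57, and PDE1A was at 3.14, where the other 5 licensed libraries were at 0.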

How the results depend on the processing

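Under 15 alternatives, the log2 fold change of NOS2 stayed between 4.83 and 5.62 and that of ARG2 between 1.75 and 2.06, each past the adjusted threshold (largest adjusted p 0.00166 for NOS2 and 2.34e-05 for ARG2). The other 16 listed genes of the lists kept their direction and an adjusted p below 0.05, but REL, FOS and PCBD1, which lie near 2-fold, lost the 2-fold part of the call in some alternatives. REL was at 0.82 with TMM, 0.91 without horse 4 and 0.98 without horse 6, FOS at -0.98 to -0.93 without horse 1, 3 or 5, and PCBD1 at -0.99 to -0.98 with a pseudocount of 5 and without horse 4, 5 or 6. Of the 9 higher and 9 lower genes, at least 8 and 7 were called in each alternative. TMM scaling over the listed genes shifted log2 fold changes by a median of -0.24 and gave 473 genes called higher and 660 lower, against 649 and 627. The horse as a replicate block changed no call of these 18 genes and moved no count of calls by over 1.5 times. In the tests within horses, 5 horses cannot give an exact sign-flip p below 0.0625, and leaving out 1 horse gave log2 means of 4.83 to 5.52 for NOS2, 1.79 to 2.06 for ARG2 and 2.78 to 3.46 for their difference, with p at that limit each time. For the naive levels of NOS2 and ARG2, r was -0.98 to -0.74 without 1 horse, and -0.86 with TMM scaling (exact permutation p = 0.0111, adjusted p = 0.0333). Spearman rho with TMM scaling was -0.94 (exact permutation p = 0.0167, adjusted p = 0.05). That scaling was computed only from genes selected as changed. For the licensed levels r was -0.75 to 0.81 without 1 horse, so its sign depended on which horse was left out. The 2 edgeR fits with the block and without horse 1 and the likeness without horse 1 were chosen after seeing the data. Depth limits the naive NOS2 values of horses 2 to 6, with 20 to 35 reads each.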
